A study of Mus musculus with 6 samples.

Results

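The CC chemokine genes are a family of small secreted attractants of leukocytes, and 10 of them were followed here in microglia of the mouse brain after experimental stroke: Ccl2, Ccl3, Ccl4, Ccl5, Ccl6, Ccl7, Ccl8, Ccl9, Ccl12 and Ccl24. They were chosen by symbol, each matched 1 line of a count table of 38207 genes and loci, and all 10 had enough counts to be tested. RNA of microglia from wild-type mice was sequenced as nanopore cDNA in 6 libraries, each from the pooled cells of 30 mice, 3 of them from sham-operated mice and 3 from mice given tMCAO (usually short for transient middle cerebral artery occlusion, a stroke model in which a brain artery is blocked for a time and then reopened). The time after surgery, the age and sex of the mice and the isolation of the cells were not given in the sources used here, and the extraction protocol speaks of tissue. Nothing says how the pools were prepared, so whether they are independent of each other is not known. The p-values measure the spread between these libraries.

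CC chemokines carry adjacent cysteines near the start of the mature protein, from which the family takes its name, and they signal through receptors coupled to inhibitory G proteins on the leukocytes they attract. Microglia, the resident macrophages of the brain, are known to make several of them when activated, among them Ccl2, Ccl3 and Ccl4. The ligands of the receptor CCR2 (Ccl2, Ccl7 and Ccl12 in the mouse) draw monocytes, and Ccl3, Ccl4 and Ccl5 draw monocytes, macrophages and T cells. In the RefSeq gene order for GRCm38.p6, 9 of the 10 genes lie on chromosome 11, with Ccl2, Ccl7, Ccl12 and Ccl8 in 1 stretch and Ccl5, Ccl9, Ccl6, Ccl3 and Ccl4 in another, and Ccl24 lies on chromosome 5.

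After tMCAO, 6 of the 10 genes rose (Ccl2, Ccl3, Ccl4, Ccl5, Ccl8 and Ccl12), 1 fell (Ccl9) and 3 did not pass the test (Ccl6, Ccl7 and Ccl24). The call is an adjusted p under 0.05 in edgeR's quasi-likelihood test over all 13127 genes and loci tested, of which 9.17% were called higher and 8.96% lower. Levels are in CPM (counts of a gene scaled to the total counts of its library), a positive log2 fold change means a higher level after tMCAO, and ± after a log2 fold change is its standard error. The rises ran from 0.88 ± 0.22 for Ccl4 to 3.82 ± 0.66 for Ccl8 on the log2 scale. The median log2 fold change of the 10 genes was 0.94, against 0.00 over all genes tested. Every tMCAO library lay above every sham library for 7 of the 10 genes, as it did for 23.3% of all genes tested, and every one lay below for 1, as for 14.6%. In such bulk pools, fewer cells of a type and less RNA per cell cannot be told apart.

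**Figure D1:**
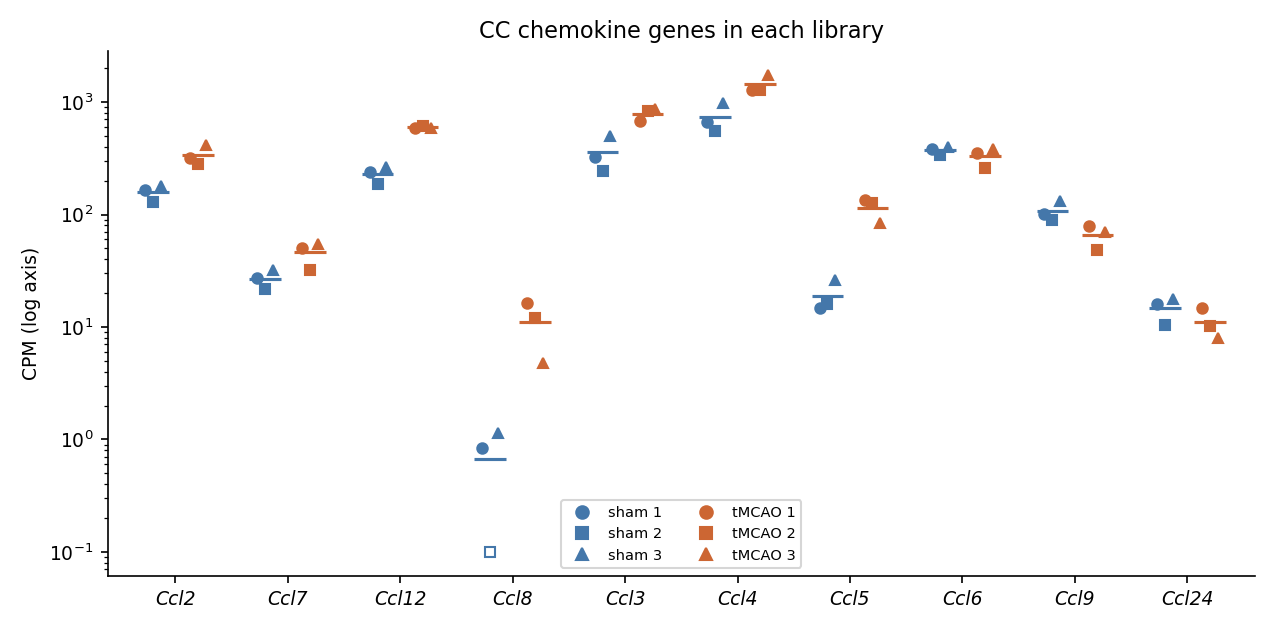
CPM of each CC chemokine gene in each library on a log axis, sham in blue and tMCAO in orange, with 1 symbol per replicate number and a line at the group mean. The open symbol at 0.1 stands for the sham 2 library, in which Ccl8 had no count. The groups separate for 8 of the 10 genes and overlap for Ccl6 and Ccl24.

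Sham libraries held 2371235 to 2614512 counts each and tMCAO libraries 1855495 to 2030550, so that 1 count stood for 0.382 to 0.539 CPM. Markers of microglia were abundant throughout: the summed level of 9 of them, the purine receptor gene P2ry12 included, was 14942, 13763 and 14060 CPM in sham and 13337, 11473 and 12616 CPM in tMCAO, where 4 of the 9 had fallen and 5 did not pass the test. Each sham sum lay above each tMCAO sum. The 4 markers that fell, beside 8.96% of all genes tested called lower, were P2ry12, Fcrls, Gpr34 and Siglech. Gpr34 kept its call in 9 and Fcrls in 12 of 14 alternative fits. The markers did not all move 1 way. Of the 5 that did not pass, Csf1r (0.35 ± 0.18), Sall1 (0.33 ± 0.18) and Cx3cr1 (0.16 ± 0.16) were higher. Tmem119 (-0.24 ± 0.19) and Aif1 (-0.20 ± 0.16) were lower. Counts of mitochondrial genes made up 1.789% to 3.35% of the sham libraries and 0.83% to 1.036% of the tMCAO libraries.

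The promoters printed here are those of the 5 members in the promoter table used. Neighbouring genes among them went different ways: Ccl12 and Ccl8 both rose, while Ccl9 fell, Ccl6 did not pass the test and Ccl3 beside them rose. They are the 250 bases before the start of each gene in RefSeq, build GRCm38.p6, written from 5′ to 3′ on the gene's strand. Capitals mark matches on either strand to TATAAA, to the AP-1 motif TGANTCA or to the NF-kB consensus.
Ccl12, chr11:82101595-82101844, plus strand: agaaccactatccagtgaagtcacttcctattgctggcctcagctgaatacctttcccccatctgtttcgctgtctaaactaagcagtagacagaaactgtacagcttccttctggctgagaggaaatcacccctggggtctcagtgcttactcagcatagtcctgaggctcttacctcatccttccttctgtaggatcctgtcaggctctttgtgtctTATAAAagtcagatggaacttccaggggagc
Ccl8, chr11:82114935-82115184, plus strand: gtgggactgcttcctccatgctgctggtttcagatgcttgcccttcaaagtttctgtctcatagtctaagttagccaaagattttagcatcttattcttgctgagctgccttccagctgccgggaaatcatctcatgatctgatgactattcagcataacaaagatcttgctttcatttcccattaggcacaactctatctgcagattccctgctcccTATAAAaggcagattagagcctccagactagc
Ccl9, chr11:83578637-83578886, minus strand: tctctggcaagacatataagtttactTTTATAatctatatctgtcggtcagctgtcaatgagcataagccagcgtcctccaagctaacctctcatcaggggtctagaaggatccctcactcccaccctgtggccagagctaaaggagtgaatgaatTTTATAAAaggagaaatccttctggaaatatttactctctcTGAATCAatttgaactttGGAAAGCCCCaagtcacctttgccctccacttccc
Ccl6, chr11:83593088-83593337, minus strand: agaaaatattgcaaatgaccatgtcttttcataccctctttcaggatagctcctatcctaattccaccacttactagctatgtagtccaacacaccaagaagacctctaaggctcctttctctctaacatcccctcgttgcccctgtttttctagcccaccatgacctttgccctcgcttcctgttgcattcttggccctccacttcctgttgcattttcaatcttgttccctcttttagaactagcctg
Ccl3, chr11:83649379-83649628, minus strand: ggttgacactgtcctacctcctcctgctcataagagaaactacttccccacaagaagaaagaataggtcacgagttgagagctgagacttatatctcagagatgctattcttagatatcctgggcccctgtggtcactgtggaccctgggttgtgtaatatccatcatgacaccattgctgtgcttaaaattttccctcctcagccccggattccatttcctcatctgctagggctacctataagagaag
The search covered these bases and the first 50 of each gene, which held no match. TATAAA was found in 3 of the 5 windows (Ccl12, Ccl8 and Ccl9), against 13.6% of 32851 windows of the same length. In Ccl12 and Ccl8, which rose, it began 31 and 32 bases before the start. The NF-kB consensus and TGANTCA were each found in 1 of the 5, that of Ccl9, against 4.51% and 7.81% of all windows, and in Ccl9 TATAAA was found on both strands in overlap. The interferon-stimulated response element, searched on both strands like the others, was found in none of the 5 and in 3.44% of all windows. These matches describe letters and show no binding.

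Among the ligands of CCR2, Ccl12 and Ccl2 rose and Ccl7 did not pass the test. Ccl12 (ENSMUSG00000035352), a monocyte attractant known in the mouse, stood at 237, 186 and 266 CPM in sham 1, 2 and 3 and at 586, 615 and 590 CPM in tMCAO 1, 2 and 3. The tMCAO libraries were nearly level, with a coefficient of variation of 2.72%, the lowest of the 10 genes in either group, and all lay well above the sham libraries. Its level was 2.41-fold higher (log2 fold change 1.27 ± 0.15, adjusted p = 0.000189 in edgeR's quasi-likelihood test).

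Ccl2 (ENSMUSG00000035385), the main attractant of monocytes that carry CCR2, stood at 164, 129 and 178 CPM in the sham pools and at 315, 279 and 414 CPM in the tMCAO pools. The groups did not overlap, and tMCAO 3 was the highest library. The level was 1.99-fold higher (0.99 ± 0.19, adjusted p = 0.00398 in edgeR's test). The calls of Ccl2 and Ccl12 held in all 14 alternative fits.

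Ccl7 (ENSMUSG00000035373), another monocyte attractant that binds CCR2, had 27.0, 21.8 and 32.1 CPM in sham and 50.7, 32.3 and 54.9 CPM in tMCAO. The groups came within 1 CPM of each other without overlapping, between sham 3 and tMCAO 2. Its log2 fold change of 0.66 ± 0.25 did not pass edgeR's test (adjusted p = 0.0791), with an unadjusted 95% interval of 0.13 to 1.19. Without tMCAO 2 it was 0.90 and passed (adjusted p = 0.0288). It also passed with library totals as the only scaling (0.0490) and with no filter on low counts (0.0175).

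Ccl8 (ENSMUSG00000009185), which in the mouse acts on the receptor CCR8, was nearly absent from sham. It had 2, 0 and 3 counts in sham 1, 2 and 3, and 33, 22 and 9 counts in the tMCAO pools. The zero of sham 2 allows a level of up to 1.19 CPM (3 counts, counting error only), and the tMCAO libraries stood at 16.3, 11.9 and 4.79 CPM. All 3 tMCAO libraries lay above sham, with tMCAO 3 well below the other two. The fitted fold was 14.1, with a 95% interval of 5.24 to 37.8 (log2 fold change 3.82 ± 0.66, adjusted p = 0.00198 in edgeR's test), and the small sham counts leave its size uncertain. Leaving out single libraries gave log2 values from 3.28 to 4.41, and the call held in all 14 alternative fits.

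Ccl3, Ccl4 and Ccl5, which attract macrophages and T cells, all rose, and Ccl5 rose most among them. Ccl5 (ENSMUSG00000035042), a chemokine of T cells and monocytes, had 14.8, 15.9 and 26.0 CPM in sham and 134, 127 and 84.1 CPM in tMCAO. The lowest tMCAO library, tMCAO 3, was still far above the highest sham library, sham 3. Its level was 5.57-fold higher, with a 95% interval of 3.89 to 7.98 (2.48 ± 0.24, adjusted p = 3.61e-05 in edgeR's test), and the call held in all 14 alternative fits.

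Ccl3 (ENSMUSG00000000982), which binds CCR1, had 326, 246 and 504 CPM in sham and 677, 832 and 864 CPM in tMCAO. The groups did not overlap, although sham 3 stood apart from the other sham libraries, towards the tMCAO libraries. The log2 fold change was 1.04 ± 0.23 (2.05-fold, adjusted p = 0.0129 in edgeR's test). The call was lost without sham 1 (adjusted p = 0.0577), without tMCAO 2 (0.0573), without tMCAO 3 (0.0528) and without sham 1 and tMCAO 3 together (0.102).

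Ccl4 (ENSMUSG00000018930), a close relative of Ccl3 and the member with the most counts, had 666, 550 and 985 CPM in sham and 1288, 1292 and 1755 CPM in tMCAO. Again the groups did not overlap and sham 3 was the highest sham library. Its log2 fold change was 0.88 ± 0.22 (1.84-fold, adjusted p = 0.0221 in edgeR's test). The call was lost without sham 1 (adjusted p = 0.0902), without sham 2 (0.0560) and without sham 1 and tMCAO 3 (0.107), where the log2 fold change was 0.58.

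Ccl9 and Ccl6, mouse chemokines that bind CCR1, did not rise. Ccl9 (ENSMUSG00000019122) had 101, 90.0 and 132 CPM in sham and 78.8, 48.5 and 69.2 CPM in tMCAO, with every tMCAO library below every sham library. It fell by 0.83 on the log2 scale (standard error 0.21), to 0.563 of the sham level (adjusted p = 0.0168 in edgeR's test). The call was lost without sham 3 (adjusted p = 0.0792) and without tMCAO 2 (0.0694).

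Ccl6 (ENSMUSG00000018927), abundant in both groups, had 386, 335 and 401 CPM in sham and 353, 261 and 384 CPM in tMCAO. The groups overlapped, and the log2 fold change of -0.28 ± 0.18 did not pass (adjusted p = 0.301 in edgeR's test). The 95% interval of its fold ran from 0.635 to 1.07.

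Ccl24 (ENSMUSG00000004814), an attractant of eosinophils that binds CCR3, had 16.0, 10.3 and 17.6 CPM in sham and 14.8, 10.2 and 7.99 CPM in tMCAO, and the groups overlapped. Its log2 fold change was -0.52 ± 0.31 (adjusted p = 0.268 in edgeR's test), with a fold interval of 0.436 to 1.11, which leaves room for a fall to less than 0.5 of the sham level.

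**Figure D2:**
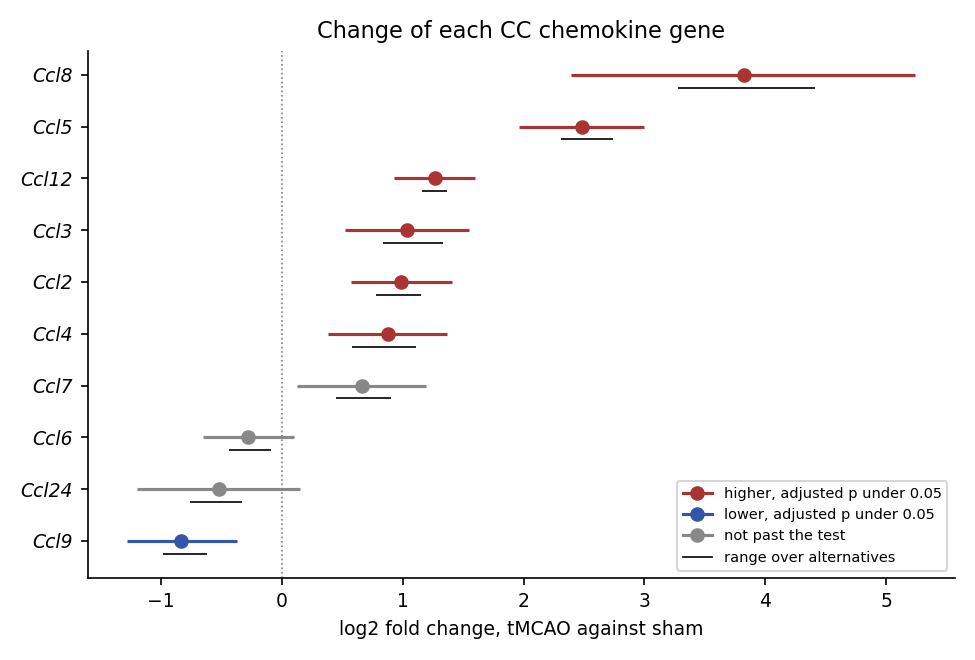
Log2 fold change of each gene (point) with its unadjusted 95% interval (coloured line) and, under it in black, the range over the 14 alternative fits. The genes that rose run from 0.88 (Ccl4) to 3.82 (Ccl8), Ccl9 lies at -0.83, and for none of the 10 genes does the black range reach 0.

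Whether neighbouring relatives moved by different amounts was asked of 4 pairs through the log2 ratio of their counts within each library (1 added to each count). Library size cancels in this ratio. An effect of gene length stays in each ratio and cancels only in the difference between the groups. With 3 libraries against 3, the two-sided exact permutation test cannot give a p below 0.1, or pass a threshold of 0.05. The log2 ratio of Ccl6 to Ccl9 was 1.93, 1.89 and 1.60 in sham and 2.16, 2.42 and 2.46 in tMCAO, and the groups did not overlap (difference 0.54, exact p = 0.1, 0.2 adjusted over the 4 pairs). That of Ccl2 to Ccl7 was 2.58, 2.54 and 2.46 in sham and 2.62, 3.09 and 2.91 in tMCAO, likewise without overlap (difference 0.34, exact p = 0.1, 0.2 adjusted). The ratios of Ccl3 to Ccl4 (difference 0.19, exact p = 0.2, 0.267 adjusted) and of Ccl2 to Ccl12 (-0.30, exact p = 0.4, 0.4 adjusted) overlapped between the groups. For Ccl2 to Ccl12, tMCAO 1 and 2 had -0.89 and -1.14, while tMCAO 3 had -0.51, within 0.1 of the sham libraries. In coding sequence, Ccl3 and Ccl4 were 68.1% identical and Ccl6 and Ccl9 were 64.6% identical, and no pair of the 10 genes exceeded the first of these values. The use of strand in counting is not known, so reads of genes that overlap could be mixed. In RefSeq, though not in GENCODE M21, the gene models of Ccl3 and Ccl4 share 755 bases, and Ccl5 overlaps Gm32650. In GENCODE M21, Ccl2 overlaps Gm17268, which had no count in any library, and Ccl6 overlaps E230016K23Rik, both on the opposite strand.

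The 10 genes together made up 0.158% to 0.254% of the counts in sham libraries and 0.351% to 0.423% in tMCAO libraries. Their summed level was 1937, 1583 and 2543 CPM in sham and 3514, 3510 and 4228 CPM in tMCAO, and the groups did not overlap. Within that sum, the share of Ccl4 was 35.9 ± 2.41% in sham and 38.3 ± 2.75% in tMCAO (SD, n = 3). The shares of Ccl6 and Ccl9 were 18.9 ± 2.81% and 5.36 ± 0.278% in sham, against 8.86 ± 1.32% and 1.75 ± 0.442% in tMCAO. Ccl12 held 11.5 ± 0.900% and 16.0 ± 1.87%, and Ccl5 0.929 ± 0.145% and 3.14 ± 1.00%. Ccl6 and Ccl9 held smaller shares, and Ccl12 and Ccl5 larger ones, in every tMCAO library than in any sham library, and Ccl4 was the largest part in all 6.

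**Figure D3:**
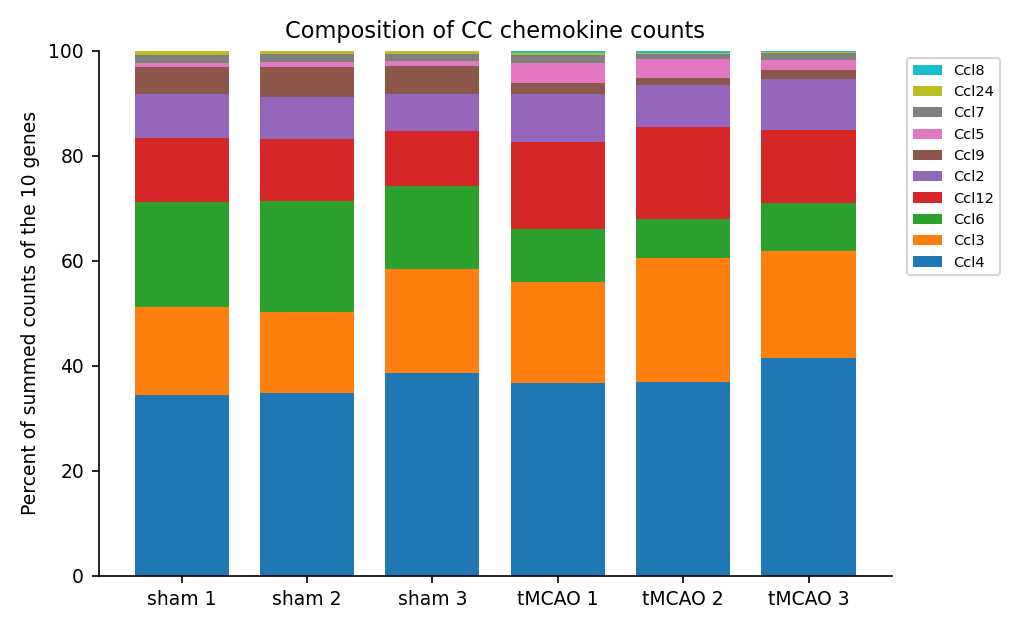
Share of each gene in the summed counts of the 10 CC chemokine genes, in percent, 1 bar per library. Ccl6 holds 18.9 ± 2.81% of the sum in the sham libraries and 8.86 ± 1.32% in the tMCAO libraries (SD, n = 3).

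To set the genes beside each other, levels (means ± SD, n = 3) were divided by the length of an annotated protein-coding transcript of each gene. That transcript was picked by its name, not by its use in these cells. Nanopore cDNA reads can span a whole transcript, so counts need not grow with length as they do with short reads. In sham, Ccl4 came first at 1112 ± 341 CPM per kilobase, before Ccl3 (468 ± 172), Ccl12 (427 ± 76.0), Ccl6 (260 ± 24.2) and Ccl2 (193 ± 31.3). Libraries of Ccl3 and Ccl12 overlapped, and so did those of Ccl9 (35.8 ± 7.32), Ccl5 (35.5 ± 11.7) and Ccl7 (33.7 ± 6.45). Ccl24 (11.3 ± 2.96) and Ccl8 (1.30 ± 1.16) came last. In tMCAO, Ccl4 again came first at 2190 ± 407 CPM per kilobase, and Ccl12 (1111 ± 30.3) and Ccl3 (1033 ± 131) followed with overlapping libraries. Ccl2 (414 ± 86.1) then stood above Ccl6 (231 ± 44.3), Ccl5 (216 ± 50.9) overlapped Ccl6, and Ccl7 (57.4, with libraries from 40.4 to 68.5) lay below both. The lowest were Ccl9 (21.8 ± 5.15), Ccl8 (21.5 ± 11.3) and Ccl24 (8.49 ± 2.67), with Ccl8 overlapping each of the others. Some places depend on the division by length. In CPM without it, Ccl6 (374 ± 34.9) overlapped Ccl3 (358 ± 132) in sham and came before Ccl12 (229 ± 40.8), and Ccl9 (108 ± 22.0) lay above Ccl7 (27.0 ± 5.16) and Ccl5 (18.9 ± 6.20) in every library. In tMCAO, Ccl2 (336 ± 70.0 CPM) and Ccl6 (333 ± 63.8) then overlapped, as did Ccl9 (48.5 to 78.8) and Ccl7 (32.3 to 54.9), and every library of Ccl9 lay above those of Ccl8 (4.79 to 16.3) and Ccl24 (7.99 to 14.8). Every tMCAO library of Ccl3 (677 to 864 CPM) lay above those of Ccl12 (586 to 615) without the division. Likewise, every tMCAO library of Ccl6 (261 to 384 CPM) lay above those of Ccl5 (84.1 to 134).

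Within sham the members shared most of an order: all 10 were highest in sham 3 and 9 were lowest in sham 2. Of all genes tested, 38.5% were highest in sham 3, and the share lowest in sham 2 was not computed. Ccl3 and Ccl4 spread most among the abundant members, with coefficients of variation of 36.8% and 30.7%, against 9.34% for Ccl6. The same libraries were searched for 24 genes known to be induced while cells are isolated, such as Fos, Jun and Zfp36. Their sums were 10496, 9428 and 12888 CPM in sham 1 to 3, the same order as Ccl3 and Ccl4. Of these sums, Hspa8 alone gave 3554, 3217 and 3967 CPM. Jun, Junb, Jund, Ier2, Egr1 and Rhob did not follow that order, and the other genes of the list did. The 24 genes summed to 12629, 12989 and 10687 CPM in tMCAO 1 to 3, which overlapped sham. Of these 24 genes, 4 rose (Nfkbia, Ier3, Gadd45b and Dusp1), 4 fell (the heat shock genes Hspa1a, Hspa1b and Hsp90aa1, and Rhob) and 16 did not pass, against 9.17% called higher and 8.96% lower over all genes tested. Dusp1 kept its call in 7 and Rhob in 6 of the 14 alternative fits (adjusted p up to 0.112 and 0.156), the libraries of Rhob overlapped, and the other 6 calls held in all 14. The part of this list in the chemokine levels was not tested.

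Within tMCAO the members did not share 1 order. Ccl2, Ccl3, Ccl4, Ccl6 and Ccl7 were highest in tMCAO 3, while Ccl5, Ccl8 and Ccl24 were lowest there, and Ccl5, Ccl8, Ccl9 and Ccl24 were highest in tMCAO 1. Summed monocyte markers ran in the order of Ccl5, Ccl8 and Ccl24, at 516, 281 and 231 CPM in tMCAO 1 to 3, and at 211, 241 and 181 CPM in sham. Of the 12 monocyte markers tested, 5 rose and 7 did not pass, with the largest rise in Fn1 (4.28 ± 0.65), while Ly6c2, a marker of inflammatory monocytes, had 12.3 ± 1.26 CPM in sham and 14.0 ± 6.65 CPM in tMCAO (SD, n = 3; 0.06 ± 0.33, adjusted p = 0.919 in edgeR's test). Summed markers of border-associated macrophages, the macrophages of the brain's coverings and vessels, were 243, 200 and 252 CPM in sham and 508, 444 and 608 CPM in tMCAO, and 6 of 11 tested rose. Over all genes tested, 9.17% were called higher. Cd163, whose libraries overlapped, kept its call in 5 and Ms4a7 in 9 of the 14 alternative fits. Ms4a7 gave 207 of the 608 CPM in tMCAO 3. Of the 5 that did not pass, Cbr2 was lower after tMCAO (-0.68 ± 0.26, adjusted p = 0.0852 in edgeR's test). The part of monocytes and border-associated macrophages in the chemokine levels was not tested.

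T and NK cells, known sources of Ccl5, left few reads. Their 14 markers in the table summed to 17.3, 26.6 and 26.8 CPM in sham and to 20.7, 23.7 and 16.5 CPM in tMCAO, and 13 of them were too low to be tested. Cd3e, a chain of the T cell receptor complex, had 1, 0 and 0 counts in sham and 1, 0 and 0 in tMCAO, and Nkg7, a granule gene of NK and T cells, had 9, 14 and 21 and then 4, 6 and 1. Summed neutrophil markers were 1923, 1895 and 2385 CPM in sham and 1938, 547 and 1066 CPM in tMCAO, and astrocyte markers 321, 499 and 157 and then 75.8, 109 and 98.0 CPM. Endothelial markers summed to 200, 286 and 194 CPM in sham and to 129, 333 and 242 CPM in tMCAO. Sham 3, where the chemokines were highest, had the fewest astrocyte reads of the sham libraries, and the part of these cells was not tested.

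**Figure D4:**
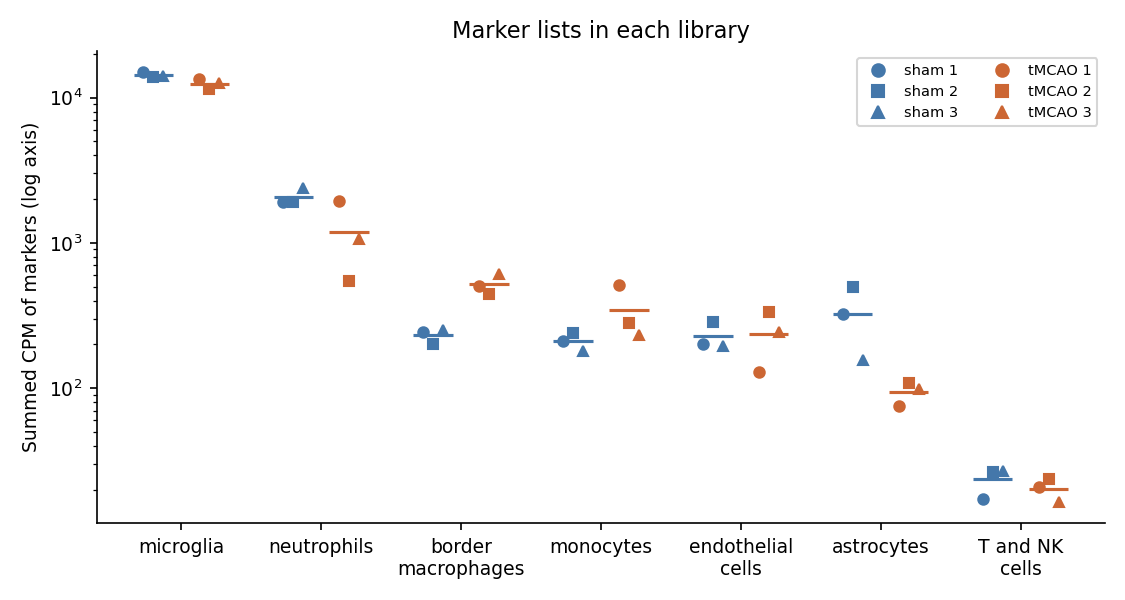
Summed CPM of the markers of 7 cell types in each library, on a log axis, with a line at the group mean. Microglial markers lie at 11473 CPM or more in every library, T and NK cell markers at 26.8 CPM or less, and the sums for microglia, border macrophages and astrocytes do not overlap between the groups.

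Of 14 genes for CC chemokine receptors and related decoy receptors, 4 could be tested, of which 2 rose and 2 did not pass. Over all genes tested, 9.17% were called higher and 8.96% lower. Ccr2, the receptor of Ccl2, Ccl7 and Ccl12, had 8, 5 and 6 counts in sham and 18, 19 and 22 in tMCAO, with no overlap (2.55 ± 0.730 and 10.3 ± 1.43 CPM, SD, n = 3; 1.88 ± 0.39, adjusted p = 0.00560 in edgeR's test). It is also a monocyte marker and is in the list above. Ccrl2, a chemokine receptor relative that does not signal as they do and binds chemerin, rose from 139 ± 31.4 to 545 ± 164 CPM (1.87 ± 0.26, adjusted p = 0.00135). Both calls held in all 14 alternative fits. Ccr1 (0.31 ± 0.34, adjusted p = 0.568) and Ccr7 (1.24 ± 0.47, adjusted p = 0.0874) did not pass. Ccr3, the receptor of Ccl24, had 1 to 3 counts in each library, and Ccr8, that of mouse Ccl8, had none in any. Ackr1, a scavenging receptor of venules and red cells, was too low to be tested, at 0 counts in each sham library and 5 in each tMCAO library.

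**Figure D5:**
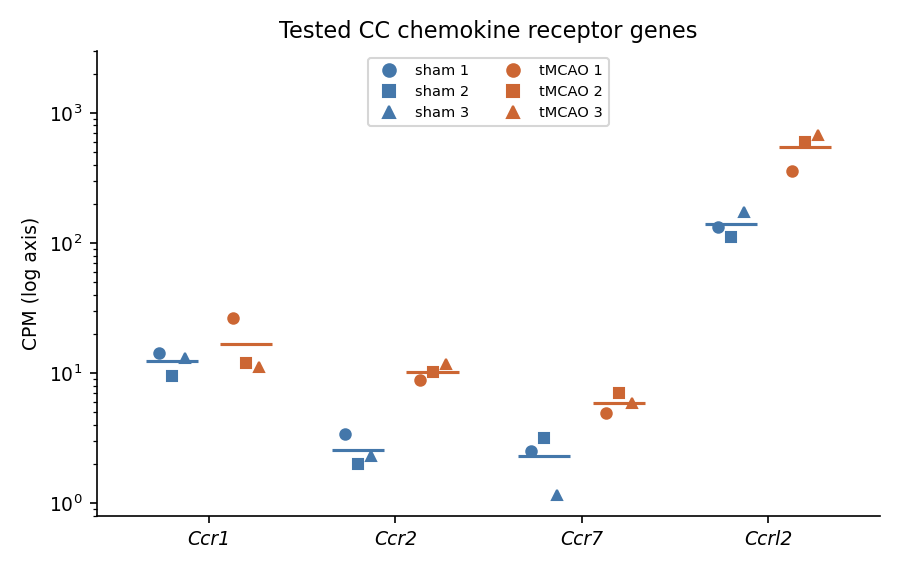
CPM of the 4 receptor genes that could be tested, in each library, on a log axis, with a line at the group mean. Ccr2 and Ccrl2 separate between the groups and rose, Ccr7 separates but did not pass the test, and Ccr1 overlaps.

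Other CC chemokine genes had low counts or none. Of 13 further members of the family, such as the eosinophil attractant Ccl11 and the lymphoid chemokines Ccl19 and Ccl21a, 12 were in the table, 5 had no count in any library and none was high enough to be tested. The best counted, Ccl27a, had 12, 26 and 7 counts in sham and 3, 4 and 6 in tMCAO. Nearly identical copies of Ccl21a and Ccl27a exist in the mouse genome, so their counts are uncertain.

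Downstream of the receptors, 26 of 27 genes of the G protein, kinase and migration machinery were tested, 2 rose, 2 fell and 22 did not pass, with a median log2 fold change of -0.14. Over all genes tested, 9.17% were called higher and 8.96% lower, and the counts of this list lie near those shares. Dock2 (0.90 ± 0.16, adjusted p = 0.00266 in edgeR's test), which activates Rac in migrating leukocytes, and Rac2 (0.54 ± 0.17, adjusted p = 0.0421) rose. Rgs10, a microglial brake on G protein signals, fell by 0.75 on the log2 scale (standard error 0.13, adjusted p = 0.00191), and Pik3r5, a subunit of PI3K-gamma, fell by 1.08 (standard error 0.29, adjusted p = 0.0209). The call of Rac2 held in 4 of the 14 alternative fits (adjusted p up to 0.201) and that of Pik3r5 in 8 (up to 0.0819), while those of Dock2 and Rgs10 held in all 14. Of the genes of NF-kB, the factor known to drive Ccl2 and Ccl5 among others, 11 of 15 were tested and 2 rose, the inhibitors Nfkbia (1.20 ± 0.21, adjusted p = 0.00308) and Nfkbib (0.94 ± 0.24, adjusted p = 0.0177). Nfkbib kept its call in 10 of the 14 alternative fits (adjusted p up to 0.0950). Rela (0.03 ± 0.19, adjusted p = 0.941) and Nfkb1 (-0.36 ± 0.18, adjusted p = 0.178), which encode NF-kB subunits, did not pass.

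The genes whose profile over the 6 libraries was most like that of 3 members were found among 6444 well-counted genes by the Euclidean distance between profiles, each gene's CPM being taken as a share of its sum over the libraries. For Ccl5 the nearest was Cdkn1a, a cell cycle inhibitor induced by p53 (distance 0.0201), with 19.4, 19.0 and 22.2 CPM in sham and 132, 130 and 85.2 CPM in tMCAO, and then Ehd1 (0.0472) and Cyp4f18 (0.0518). For Ccl2 they were Vps13c (0.0235), Mpp1 (0.0268) and Fblim1 (0.0273). For Ccl4 they were Vps13c (0.0356), Ccl2 itself (0.0383) and Asap1 (0.0389). With 6 libraries in 2 groups, a similar fold between the groups is enough for a small distance.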

How the data were processed

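Per the file headers, the deposited table gives read counts for each gene in each library, not normalized. Its CPM columns are those counts divided by library totals by the authors, and they differed from CPM recomputed here by at most 4.87e-06. Of tools, minimap2 is named in the submitters' processing notes, without a version. Per the labels' protocols, total RNA was extracted with TRIzol and made into libraries with a nanopore cDNA kit that includes PCR. The build, annotation and counting rule, and whether strand was used, were not given in the sources used here. Reads from genes that overlap, or lie antisense to each other, may therefore be mixed. Of 38219 lines, 12 held no values and were left out.

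Counts were tested with edgeR 4.0.16 (R 4.3.3): filterByExpr (minimum count 10, minimum total 15), TMM scaling, robust dispersions, glmQLFit and glmQLFTest with the group as the only term, and Benjamini-Hochberg adjustment over the 13127 genes tested. Standard errors are the log2 fold change divided by the square root of F, and 95% intervals use the test's degrees of freedom and are not adjusted. The alternatives were DESeq2 1.42.0, limma 3.58.1 (voom), other scalings, no filter, a replicate block and libraries left out. The code was tested on simulated data. PCR reads carry no molecular identifiers, so limits from counts cover counting error only.

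The members, gene lists, pairs and alternatives were chosen with earlier results of these data known. Named genes are the 10 members, called receptor and ligand genes, up to 4 genes with the smallest p in each other list, and the 3 genes nearest in profile to Ccl2, Ccl4 and Ccl5 (average log2 CPM 4 or more). Other receptors, Rela, Nfkb1, Ackr1, Ccl27a, the single marker genes given and, of the genes induced by isolation, those other than Hspa1a, Hspa1b, Hsp90aa1 and Ier3 were named after their values were seen. Coding sequences and transcript lengths are from GENCODE M21, the promoters from a table of RefSeq promoters, in which 5 of the 10 members were matched. Ccl2, Ccl4, Ccl5, Ccl7 and Ccl24 have no promoter printed. Some genes of the receptor and microglial marker lists are not reported here and are left out of their counts and sums.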

Additional observations from a re-analysis of the deposited data

How the results depend on the processing

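Each member kept its direction in all 14 alternative fits, and Ccl2, Ccl5, Ccl8, Ccl12, Ccr2 and Ccrl2 kept their calls in all of them. The members called higher numbered 6 or 7 under every other scaling, filter and tool. With 1 library left out they ran from 4 to 6, with 4 without sham 1, and those called lower ran from 0 to 1. Over all genes, leaving out 1 library gave 700 to 1423 higher and 554 to 1167 lower, against 1204 and 1176. Without sham 1 and tMCAO 3 together, 4 members were higher and 1 lower, and 652 of all genes were lower. With no filter on low counts, 2053 genes were higher and 1986 lower, of 31736 tested. Scaled by library totals alone, 63.2% of called genes were higher, against 50.6%, and the median over all genes tested moved from 0.00 to 0.11 (log2). Without the filter it was -0.14. The cause of these differences was not tested. Same-numbered libraries correlated at -0.21, 0.0186 and -0.174 in their deviations from the group means. With 3 libraries in a group these deviations are tied to each other. The values therefore cannot tell whether same-numbered pools were prepared together. With the replicate block, 834 genes were higher and 828 lower, and 6 members were higher and 1 lower. The paralog ratios kept their signs with 0.5 added to the counts and with each library left out. At 1855495 to 2614512 counts a library, folds of genes with a few sham counts, such as Ccl8, are loosely bounded.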
